A study of Homo sapiens with 6 samples.

Results

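The genes described here supply S-adenosylmethionine (SAM), clear its by-product and make, acetylate or limit polyamines, and they were followed in human Caco2 cells, a line derived from a colon cancer, that were sensitive or resistant to methotrexate (MTX). The 10 members were chosen by name: MAT2A and MAT2B for SAM supply, AHCY for the removal of S-adenosylhomocysteine, ODC1, AMD1, SRM and SMS for polyamine synthesis, SAT1 for polyamine acetylation, and OAZ1, an antizyme. AHCYL1 was listed beside AHCY as its relative. They are 10 of the 19775 genes that a probe set of the array named alone, and every probe set annotated to them was read, 20 of 54613 in all. RNA of parental Caco2 cells was hybridised to 3 Affymetrix HG U133 Plus 2.0 arrays, and RNA of Caco2 cells able to grow in 10 µM MTX to another 3. The resistant cells came from the parental line by exposure to rising MTX concentrations, and whether they are a single clone is not given in the sources used here. Parental cells grew in Ham's F12 medium with serum, and the resistant ones in selective medium that has no glycine, no hypoxanthine and no thymidine and contains dialyzed serum, so that resistance to MTX and the change of medium cannot be told apart. The labels leave unstated whether replicates are separate cultures. The p-values therefore describe the spread of these 6 samples alone, and that spread may be technical.

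MTX blocks the reduction of folate, and reduced folate carries the methyl group with which homocysteine is turned back into methionine. Methionine is made into SAM, the methyl donor of the cell, and each methyl transfer leaves S-adenosylhomocysteine, which inhibits methyltransferases until it is split. SAM is also decarboxylated to give the aminopropyl groups that are added to putrescine to make spermidine and then spermine. Polyamines bind nucleic acids and are needed by dividing cells, among them those of the intestinal epithelium, and their level is held by synthesis, acetylation, export and the antizymes.

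Signals are given below as multiples of the array median, which lay between 10.6 and 12.8 signal units. A difference is resistant minus parental in log2 units, followed by its SE (n = 3 arrays in each group), and adjusted p-values are those of limma. The words rose and fell are kept for an adjusted p below 0.05. Each gene was read by its brightest probe set, and a level is not compared between probe sets. Parental array 3 stood apart from the other parental arrays, at a correlation of 0.946 to 0.949 with them against 0.966 between parental arrays 1 and 2. Its correlation with the resistant arrays was 0.935 to 0.939, against 0.914 to 0.929 for parental arrays 1 and 2. Values without parental array 3 are given where a call turns on it. As a check of the label, 7 of 8 colon epithelial markers had a mean at or above the array median, whereas CDX2, a transcription factor of intestinal cells, had a lower mean (0.0885 to 1.14 over the arrays). The summed epithelial signal was 1456 to 1861.4 on parental and 2203 to 2282.9 on resistant arrays. Of the 8 markers KRT8, KRT18, KRT20 and VIL1 were higher on every resistant array, as were 20.2% of all genes. All of these rose, as did 7.37% of all genes. KRT20 rose 2.97-fold, VIL1 1.74-fold, KRT8 1.6-fold and KRT18 1.33-fold (adjusted p from 0.0037 to 0.0394). CDX2, CDH17, EPCAM and CDH1 overlapped between groups, and CDH1 had a negative difference (-0.21). The part of this shift in the results below was not tested. Summed signals were 6.14 to 6.49 in parental and 8.64 to 9.32 in resistant cells for 6 fibroblast markers, 3 of which had a mean at or above the array median, and 2.06 to 3.5 and 2.57 to 2.9 for 3 endothelial markers, 1 of which did. Of the fibroblast markers, LUM lay at 0.198 to 0.352 in parental and 1.5 to 3.27 in resistant cells. Its mean reached the array median through the resistant arrays alone. The further LUM probe set overlapped between groups (means of 0.609 in parental and 0.529 in resistant cells). COL1A1 lay at 3.16 to 3.78 and THY1 at 0.876 to 1.33, and COL1A2, COL3A1 and DCN had means below the array median. Of the endothelial ones, PECAM1 lay at 1.51 to 2.26, and VWF and CDH5 had means below the array median. For 4 leukocyte markers, 2 of which had a mean at or above the array median, the sums were 299.3 to 358.8 and 500.7 to 557.9, nearly all of it LYZ. LYZ rose 1.67-fold (adjusted p = 0.00227), and its further probe set was not past the test (0.22 ± 0.12, adjusted p = 0.274). CD14 lay at 5.49 to 14.8, and CD3E at 1.04 to 1.42 in parental and 0.0377 to 0.84 in resistant cells. The defining PTPRC lay at 0.0435 to 0.937. The part of these lists in the results was not tested either.

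ODC1 was the single member past the test with all arrays. It encodes ornithine decarboxylase, which makes putrescine from ornithine and is a rate-limiting enzyme of polyamine synthesis. Its signal reached 241.8, 250 and 217.8 times the array median in the 3 parental samples, whereas the 3 resistant samples gave 142.5, 147.2 and 141.8. All 3 resistant arrays lay below all 3 parental arrays, and the resistant values were the closer together (SD 2.95 against 16.7). ODC1 thus fell 1.64-fold (-0.72 ± 0.10, adjusted p = 0.00198), with a 95% interval from -0.93 to -0.50, which does not reach a 2-fold decrease. A change past the test and of at least 2-fold was seen in 5.54% of all genes and in no member. The array measures bulk RNA, in which fewer cells with the transcript and less of it per cell cannot be told apart. Across all tested genes 5.05% fell and 7.37% rose, and 7.28% had a change as low as that of ODC1, so a decrease of this size was not rare among the genes of the array. The decrease was past the test in all 17 alternatives that were run, at 1.59-fold to 1.74-fold, and without parental array 3 it was 1.71-fold (adjusted p = 7.76e-05). A single probe set reads ODC1 on this array, so no further probe set could be set beside it.

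The stretch before the start of transcription is shown for ODC1, as the member past the test with all arrays, and for SRM, the enzyme that uses the putrescine it makes and whose signal was not past the test. Each is the 250 bases upstream of the start that RefSeq annotates (GRCh38.p14), written 5′ to 3′ on the strand of the gene, at chr2:10448328-10448577 (minus strand) and chr1:11060019-11060268 (minus strand). Capitals mark the GC box letters GGGCGG and the E-box letters CACGTG, searched on both strands.
ODC1: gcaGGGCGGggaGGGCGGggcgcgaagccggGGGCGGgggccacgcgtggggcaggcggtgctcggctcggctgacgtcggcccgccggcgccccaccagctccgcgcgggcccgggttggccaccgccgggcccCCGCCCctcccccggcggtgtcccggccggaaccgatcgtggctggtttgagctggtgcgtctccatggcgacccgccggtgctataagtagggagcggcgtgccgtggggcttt
SRM: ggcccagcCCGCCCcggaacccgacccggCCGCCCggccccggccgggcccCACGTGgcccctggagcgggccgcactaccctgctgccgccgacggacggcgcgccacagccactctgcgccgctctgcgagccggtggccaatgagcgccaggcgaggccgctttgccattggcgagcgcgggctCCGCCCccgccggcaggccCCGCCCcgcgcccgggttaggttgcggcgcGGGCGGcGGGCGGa
The ODC1 window holds 4 GC boxes and is 78.8% G and C, and the SRM window holds 6 GC boxes and 1 E-box, which do not overlap, and is 82% G and C. Of 35116 windows of the same length, 42.6% hold a GC box and 6.34% an E-box. Among the 10 members 7 windows hold a GC box and 1 an E-box, and these matches are a description of letters with no evidence of binding in these data.

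**Figure D1:**
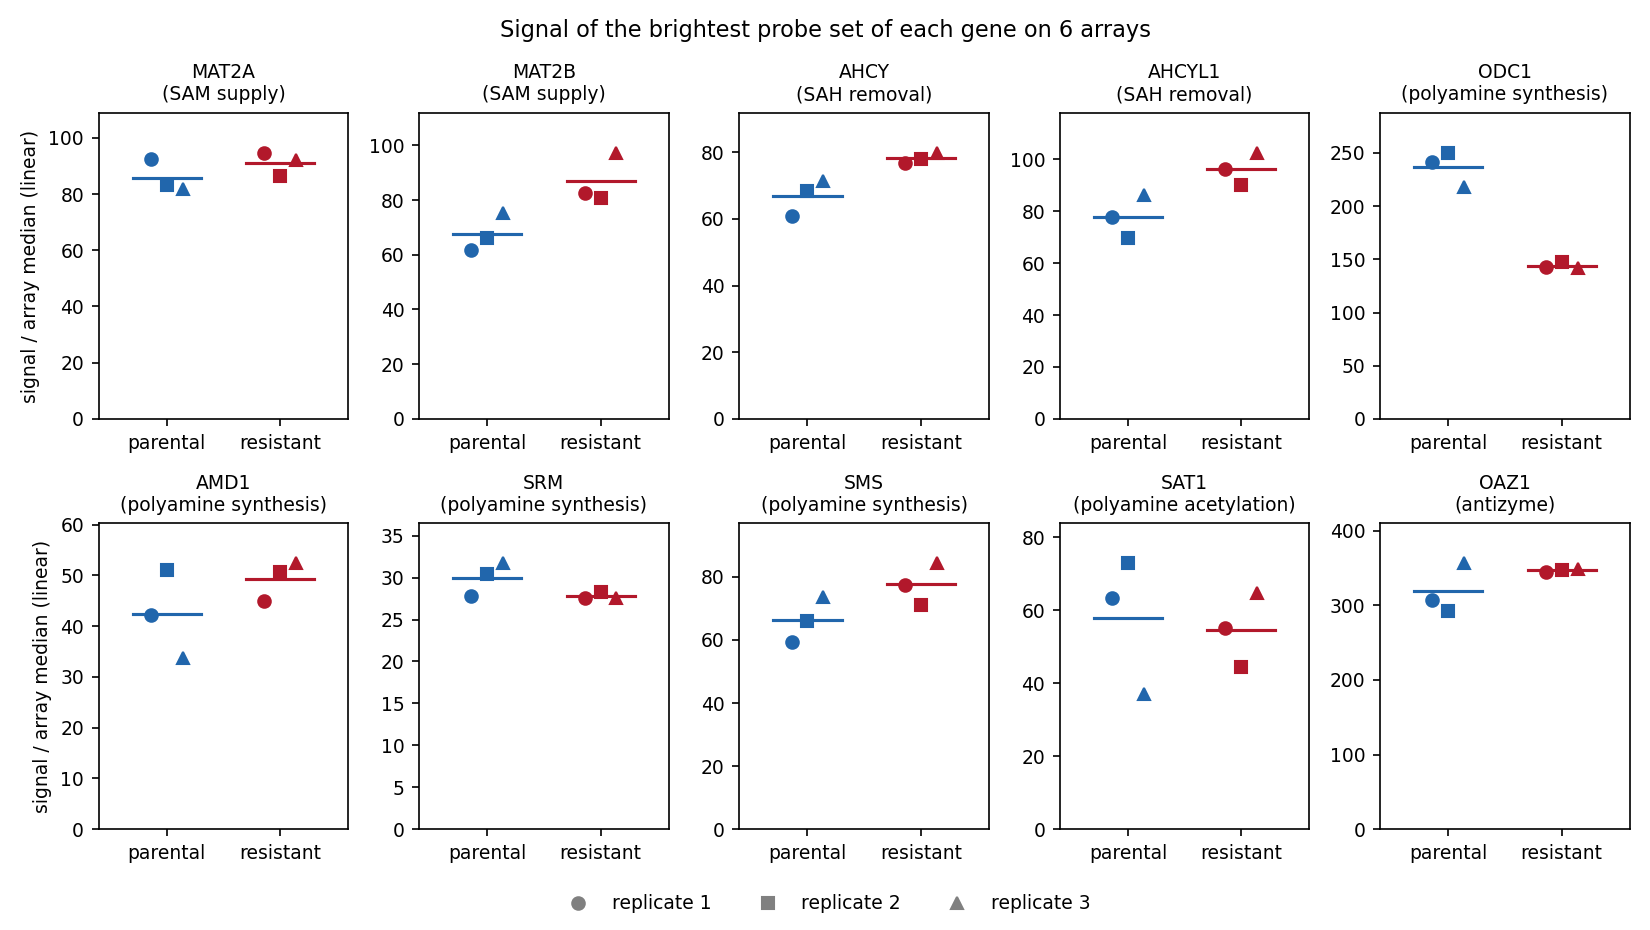
Signal of each member on the 6 arrays, as a multiple of the array median on linear axes that start at 0 (brightest probe set, parental in blue, resistant in red, marker shape by replicate number, bars at the mean of 3 arrays). For ODC1 the resistant markers, at 141.8 to 147.2, lie below the parental ones, at 217.8 to 250, and SAT1 is lowest on parental array 3. The role above the AHCYL1 panel is that of its relative AHCY.

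The other enzymes of polyamine synthesis were not past the test. AMD1 encodes S-adenosylmethionine decarboxylase, which prepares the aminopropyl donor. Its brighter probe set gave 42.1, 51.1 and 33.7 on the parental arrays and 45.0, 50.7 and 52.4 on the resistant arrays, and the groups overlapped. The difference was 0.24 ± 0.16 (adjusted p = 0.379). The further probe set of AMD1 lay at 36.4 to 38.8 in parental and 43.1 to 49.1 in resistant cells without overlap, with a difference of 0.29 ± 0.12 (adjusted p = 0.153). Both probe sets had a positive difference, and the brighter was lowest on parental array 3, 1.38-fold below the mean of parental arrays 1 and 2.

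SRM encodes spermidine synthase, which joins the aminopropyl group to putrescine. Its signal was 27.8, 30.4 and 31.7 on the parental arrays and 27.5, 28.3 and 27.6 on the resistant arrays. The difference was -0.11 ± 0.13 (adjusted p = 0.63), with a 95% interval from -0.39 to 0.18. The resistant arrays overlapped the lower end of the parental range. SMS encodes spermine synthase, which adds the next aminopropyl group. It gave 59.3, 65.9 and 73.5 in parental and 77.3, 71.2 and 84.4 in resistant cells, a difference of 0.23 ± 0.13 (adjusted p = 0.273, 95% interval -0.05 to 0.51). Only parental array 3 reached into the resistant range, and without it the difference was 0.31 ± 0.11 (adjusted p = 0.059).

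For SAM supply, MAT2A encodes the catalytic subunit of the methionine adenosyltransferase found in most tissues outside the liver. Its brighter probe set gave 92.4, 83.2 and 82.0 on the parental arrays and 94.6, 86.3 and 92.2 on the resistant arrays. These ranges overlapped, and the difference of 0.09 ± 0.11 (adjusted p = 0.654, 95% interval -0.16 to 0.33) was within the spread of the arrays. The further probe set, at 26.3 to 30.2 and 32.1 to 34.8, did not overlap between groups and gave 0.25 ± 0.13 (adjusted p = 0.241). MAT2B encodes the regulatory subunit that binds MAT2A. Its signal was 61.7, 66.0 and 75.4 in parental and 82.7, 80.7 and 97.2 in resistant cells, with no overlap. The difference was 0.36 ± 0.13 (95% interval 0.07 to 0.65) and did not pass the adjustment (adjusted p = 0.103). A dim further probe set of MAT2B, at 1.56 to 2.66 and 2.10 to 2.6, overlapped between groups (0.22 ± 0.27).

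AHCY encodes adenosylhomocysteinase, which splits S-adenosylhomocysteine into homocysteine and adenosine. Parental cells gave 60.8, 68.4 and 71.3, and resistant cells 76.7, 78.0 and 79.8. The groups were apart by a narrow margin, and the difference was 0.23 ± 0.11 (adjusted p = 0.229, 95% interval -0.02 to 0.48). AHCYL1, a relative of AHCY better known as IRBIT, binds the inositol trisphosphate receptor and acts on ion transport. Its brightest probe set was at 77.8, 69.7 and 86.1 in parental and 96.3, 89.9 and 102.4 in resistant cells without overlap (0.31 ± 0.12, adjusted p = 0.131). The other tested probe sets of AHCYL1 overlapped between groups and gave 0.09 ± 0.14 and -0.05 ± 0.17, so its probe sets did not share a direction. The last AHCYL1 probe set, at 0.685 to 0.867, was too dim to be tested.

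Parental array 3 bore on MAT2B and AHCYL1. On that array MAT2B, AHCYL1, AHCY and SMS were the highest of the parental arrays, nearest to the resistant ones. SRM and OAZ1 were also highest there, above all resistant arrays, and the other 4 members were lowest of the parental arrays. Against parental arrays 1 and 2, parental array 3 was shifted towards the resistant mean in 7 of the 10 members. Without it MAT2B rose 1.36-fold (0.44 ± 0.11, adjusted p = 0.0131) and AHCYL1 1.3-fold (0.38 ± 0.10, adjusted p = 0.018), so that 2 members rose and 1 fell. In that fit 16.9% of all genes rose and 15.3% fell. With all arrays 0 of 10 members rose in limma and 0 in the methods' t-test. At an unadjusted limma p below 0.05, 2 members were higher and 1 was lower. Of all 26563 tested probe sets, 3887 were higher and 3266 lower at that threshold.

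SAT1 and OAZ1 act against the polyamine pool. SAT1 encodes spermidine/spermine acetyltransferase, whose products are oxidised or exported. Its brightest probe set gave 63.5, 72.9 and 37.1 for parental replicates 1, 2 and 3, and 55.1, 44.5 and 64.6 for the resistant ones. The resistant values lay inside the parental range, and the difference was -0.04 ± 0.24 (adjusted p = 0.936, 95% interval -0.57 to 0.50), the widest interval among the members. In each of the 3 tested probe sets parental array 3 was the lowest of all 6 arrays, at 1.84-fold to 2.08-fold below the mean of parental arrays 1 and 2. The direction of SAT1 was therefore not settled: it was -0.33 ± 0.15 without that array (adjusted p = 0.127) and 0.16 ± 0.24 without parental array 2 (adjusted p = 0.749), and the further probe sets gave 0.25 ± 0.27 and 0.21 ± 0.28. The last SAT1 probe set is dim, also reads another gene and was not used.

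OAZ1 encodes antizyme, which binds ornithine decarboxylase, sends it to the proteasome and is itself made by a polyamine-dependent frameshift in translation that an array cannot read. Its signal was 307.2, 292.3 and 356.6 in parental and 344.1, 347.9 and 348.7 in resistant cells. The resistant arrays were within the parental range and close to each other (SD 2.44 against 33.6), and the difference was 0.13 ± 0.10 (adjusted p = 0.426). The further OAZ1 probe set, at 288.3 to 334.3 and 339.2 to 353.8, was apart between groups and gave 0.17 ± 0.09 (adjusted p = 0.259). With quantile normalization the OAZ1 difference was -0.02, so it had no settled direction.

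**Figure D2:**
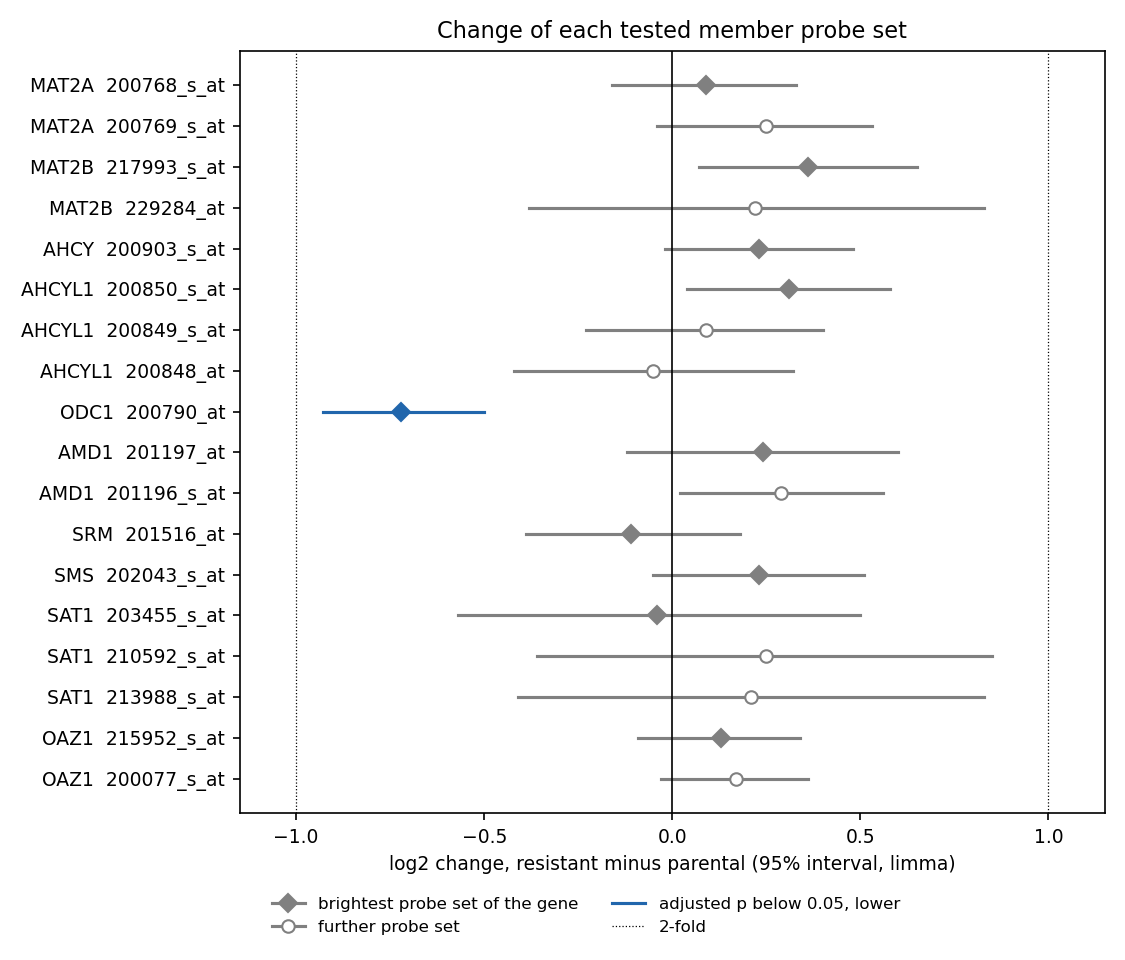
Difference of each of the 18 tested member probe sets, resistant minus parental on the log2 scale, with 95% intervals from limma (diamonds for the brightest probe set of a gene, open circles for further ones, blue at an adjusted p below 0.05, dotted lines at 2-fold). ODC1, at -0.72, is the single probe set past the test, and all intervals of the other 17 lie between the dotted lines.

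Over the list, 18 of the 20 probe sets were bright enough to be tested, and these covered all 10 genes. Of the 18, 1 fell and 0 rose, where 4.27% and 5.75% of all tested probe sets did, and 1 was lower and 6 were higher on every resistant array, against 14.4% and 17.7%. By genes, 1 of 10 fell, 3 were higher on every resistant array (AHCY, AHCYL1 and MAT2B, against 20.2% of all genes), 1 was lower on every resistant array (15.2%) and 6 overlapped. The median difference of the 10 genes was 0.18, against 0.01 for all tested genes, and 7 were positive, against 51.5% of all genes. The median size of the difference was 0.23, where that of all genes was 0.30. In the order of their differences the members ran from ODC1 (-0.72) through SRM (-0.11), SAT1 (-0.04), MAT2A (0.09), OAZ1 (0.13), AHCY (0.23), SMS (0.23), AMD1 (0.24) and AHCYL1 (0.31) to MAT2B (0.36). Among the 9 after ODC1 all intervals share the span from 0.07 to 0.18, and the order of neighbours was not tested. The interval of ODC1 overlapped that of SAT1 alone. For each of these 9 genes the interval stayed within 2-fold in both directions, from -0.57 to 0.65 at the widest bounds.

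A ratio of 2 genes on the same array is free of any single factor per array, though not of quantile normalization. The ratios of ODC1 to the other members were formed with its decrease known, so they restate that decrease and are given without a test. All 9 were lower on every resistant array than on any parental array, by 1.53-fold (against SRM) to 2.11-fold (against MAT2B), and by 1.79-fold against its antizyme OAZ1. The ratio of SRM to SMS, which work in consecutive steps, was lower on every resistant array (-0.34, two-sided exact permutation p = 0.1, the smallest that the 20 splits of 3 against 3 arrays allow). The ratios of MAT2A to MAT2B (-0.27) and AHCY to AHCYL1 (-0.08) overlapped between groups, with exact permutation p-values of 0.2 and 0.6. Those of AMD1 to SRM (0.35) and SAT1 to SMS (-0.27) overlapped as well, with exact permutation p-values of 0.2 and 0.5.

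**Figure D3:**
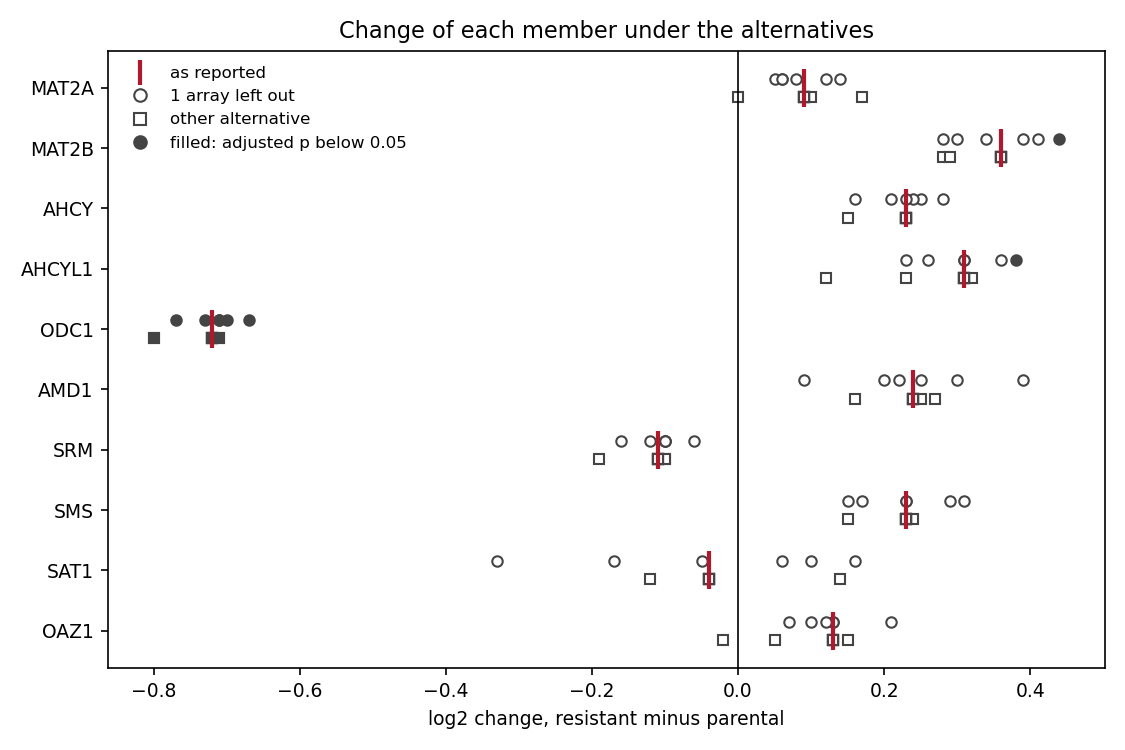
Difference of each member as reported (red bar) and under the 17 alternatives, on the log2 scale (circles with 1 array left out, squares for other settings, filled where the adjusted p was below 0.05). All 17 markers of ODC1 are filled and lie between -0.80 and -0.67, those of MAT2B and AHCYL1 are filled once each, without parental array 3, and those of SAT1 lie on both sides of 0.

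Around the members, 42 further genes of methionine and polyamine metabolism were listed, of which 33 could be tested, 7 were below the filter and 2 had no probe set that named them alone. Of the 33, 4 rose and 2 fell, beside 7.37% and 5.05% of all genes. Their median difference was 0.06, and 9 were higher and 5 lower on every resistant array, beside 20.2% and 15.2% of all genes. Without parental array 3 the counts were 11 and 10, including all 6 of these calls, where 16.9% of all genes rose and 15.3% fell, and without any other single array 1 rose and 1 fell.

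SLC18B1, which carries polyamines into vesicles, had the largest increase past the test with all arrays. Without parental array 3 that of GAMT was larger, in its brightest probe set alone. SLC18B1 went from 9.76, 11.6 and 9.64 on the parental arrays to 21.6, 22.5 and 25.9 on the resistant arrays. The groups were far apart, and it rose 2.26-fold (1.17 ± 0.15, adjusted p = 0.00168), a size reached by 3.67% of all genes. Its call was past the test in all 17 alternatives. The other polyamine transport genes, 3 of 4, were not past it with all arrays. Among them SLC3A2, a subunit of amino acid transporters that also takes part in polyamine exchange, gave -0.91 (adjusted p = 0.14) and fell 2.74-fold without parental array 3 (adjusted p = 7.09e-06), and ATP13A3, a polyamine transporter, gave -0.62 (adjusted p = 0.081) and fell 1.64-fold without it (adjusted p = 0.0203). Among enzymes of polyamine acetylation and oxidation 1 of 3 rose: SAT2, named for its likeness to SAT1 but known to acetylate thialysine, was at 3.52 to 4.49 in parental and 6.36 to 6.76 in resistant cells (1.62-fold, adjusted p = 0.0326).

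Of 5 genes of methionine salvage, which recovers methionine from the methylthioadenosine left by polyamine synthesis, 2 rose and 0 fell. The dehydratase APIP was at 44.3 to 50.1 in parental and 60.8 to 67.6 in resistant cells (1.35-fold, adjusted p = 0.0459). The dioxygenase ADI1 gave 54.4, 50.8 and 78.0 on the parental arrays and 89.3, 89.1 and 90.8 on the resistant arrays (1.5-fold, adjusted p = 0.0474), and its further probe sets, at 0.16 and 0.09, were not past the test. The first enzyme of the route, MTAP, gave -0.30 ± 0.19 in its brightest probe set, and 1 of its 5 tested probe sets fell (-0.78 ± 0.19). SAT2, APIP and ADI1 were no longer past the test without any 1 of the other 5 arrays, at adjusted p-values from 0.0549 to 0.189.

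Around SAM itself, NNMT, which spends SAM to methylate nicotinamide, fell 4.76-fold, and 2 of its 3 tested probe sets fell. Its parental signals were 91.5, 150 and 51.7, against 18.8, 17.1 and 20.5 on the resistant arrays, so that parental array 3 stood nearest to them, and it fell with each array left out (adjusted p from 3.61e-06 to 0.0172). It was not past the methods' t-test (adjusted p = 0.112) nor past the test as the mean of its probe sets (-1.67, adjusted p = 0.0599). AHCYL2, a relative of AHCYL1, fell 1.78-fold (-0.83 ± 0.18, adjusted p = 0.0217). It was at 5.16, 6 and 5.14 in parental and 3.14, 2.70 and 3.34 in resistant cells, and it was no longer past the test without any 1 array other than parental array 3 (adjusted p from 0.0556 to 0.0946). Its further probe set gave -0.51 ± 0.33 (adjusted p = 0.348). AHCYL2 was also not past the methods' t-test (adjusted p = 0.0718). As the mean of its probe sets it gave -0.67 and was not past the test (adjusted p = 0.0689).

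In the remaining groups no gene was past the test by its brightest probe set. CTH, which makes cysteine in transsulfuration, was at 20.3 and 26.2 on parental arrays 1 and 2, at 2.90 on parental array 3 and at 6.27 to 8.47 in resistant cells. The difference was -0.70 ± 0.66 (adjusted p = 0.53), and without parental array 3 it was 3.25-fold lower (adjusted p = 6.83e-05). EIF5A2, a substrate of the spermidine-dependent hypusine modification, was at 20.1, 19.5 and 9.62 in parental and 8.14 to 9.47 in resistant cells (-0.85 ± 0.26, adjusted p = 0.07), and it fell 2.29-fold without parental array 3 (adjusted p = 0.000163). On that array both genes were closer to the resistant arrays than to parental arrays 1 and 2. Of the antizymes and their inhibitors OAZ3 had the largest difference with all arrays (-0.73 ± 0.38, adjusted p = 0.245), whereas without parental array 3 the antizyme inhibitor AZIN2 did (-0.87, adjusted p = 0.0394, against -0.66 and 0.309 for OAZ3). OAZ2, a relative of OAZ1, gave 0.28 ± 0.20 in its brighter and rose 1.49-fold in its further probe set (adjusted p = 0.0463), and MTAP and OAZ2 are named because a further probe set of each passed the test and the brightest did not. Of the 3 tested genes that supply ornithine or use agmatine, AGMAT had the largest difference (0.37 ± 0.15, adjusted p = 0.136).

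Besides CTH, EIF5A2, SLC3A2, ATP13A3 and AZIN2, 10 more genes of the list were not past the test with all arrays and were past it without parental array 3. SMOX, which oxidises spermine, then fell 1.92-fold (adjusted p = 0.000772, against 0.311 with all arrays). The antizyme inhibitor AZIN1 fell 1.31-fold (adjusted p = 0.00863) and ENOPH1, of methionine salvage, 1.3-fold (adjusted p = 0.0377). GAMT, which methylates guanidinoacetate to creatine, rose 3.91-fold (adjusted p = 0.00338, against 0.422 with all arrays), from 0.856 and 0.492 on parental arrays 1 and 2, with 5.39 on parental array 3. The values on parental arrays 1 and 2 were below the array median. Its further tested probe sets gave smaller differences without parental array 3, of 0.63 and 0.29. OAZ2 rose 1.42-fold and, of the hypusine pathway, DHPS rose 1.46-fold and EIF5A 1.23-fold. MRI1, of methionine salvage, rose 1.62-fold, MTRR, which keeps methionine synthase active, 1.29-fold, and OAT, which turns over ornithine, 1.25-fold, the last 6 at adjusted p-values from 0.0116 to 0.0476. On parental array 3 SMOX (5.83), AZIN1 (65.45) and SLC3A2 (38.7) lay below all resistant arrays, as did CTH. Their resistant signals were 7.20 to 7.59, 78.48 to 81.35 and 42.3 to 44.8. OAZ2 (27.5 against 22.5 to 26.8) and GAMT (5.39 against 2.46 to 2.64) lay above all resistant arrays there. With all arrays the parental range of these genes thus held the resistant values.

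**Figure D4:**
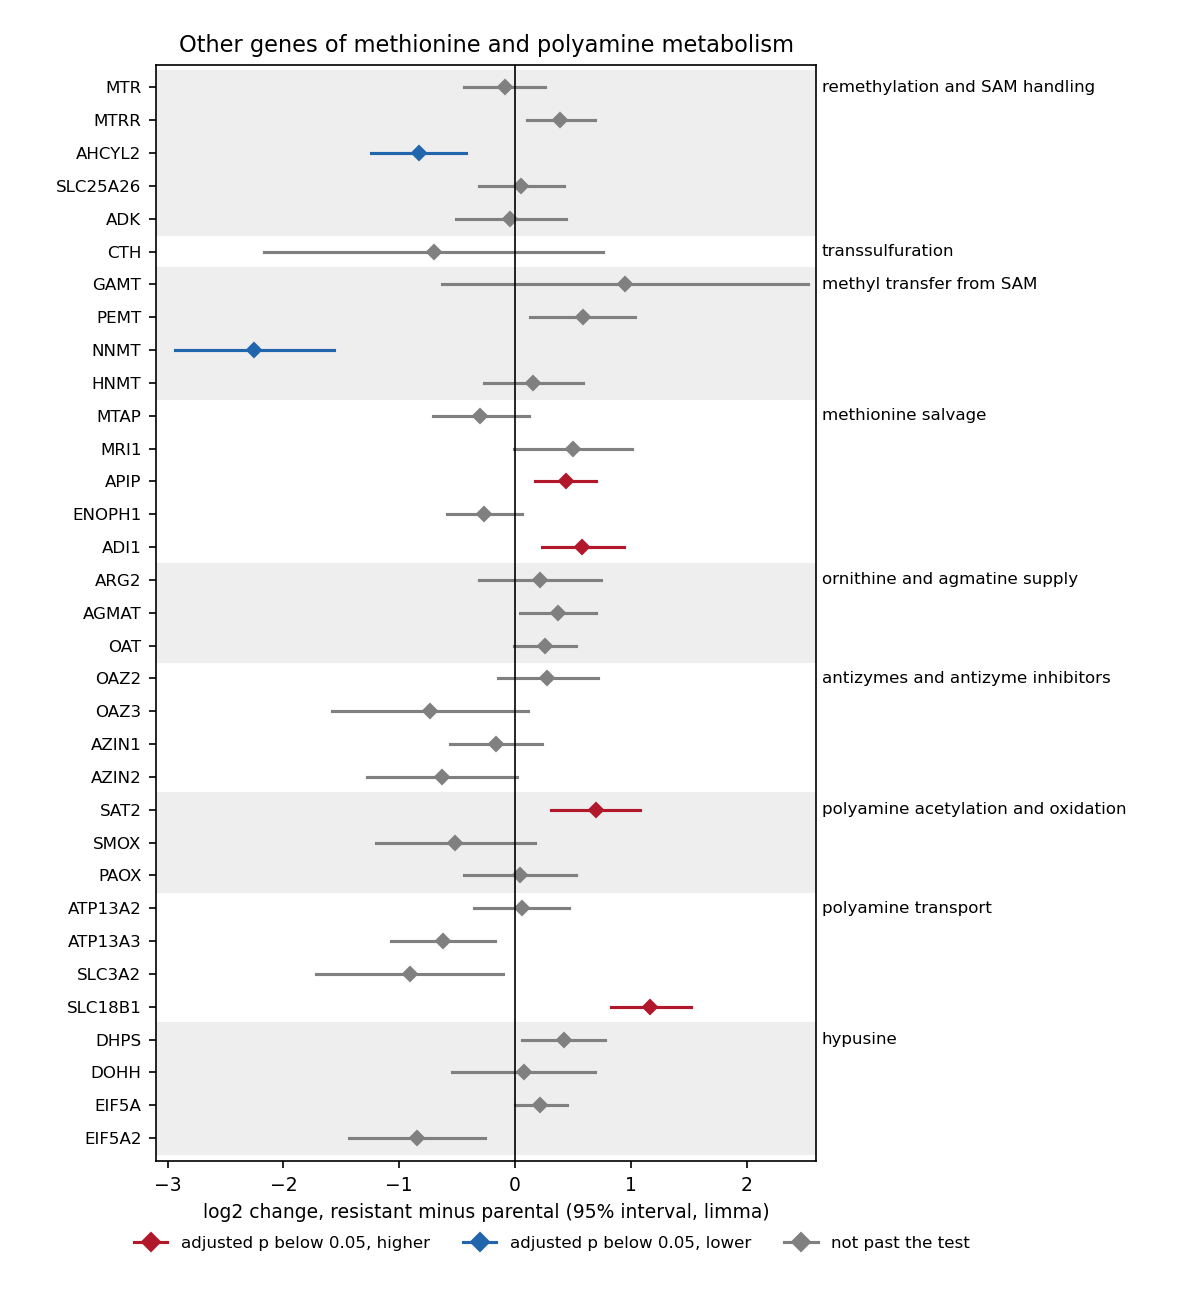
Difference of the 33 tested further genes of methionine and polyamine metabolism, resistant minus parental on the log2 scale, with 95% intervals from limma, grouped by role (red for risen, blue for fallen, grey for not past the test). SLC18B1 (1.17) and NNMT (-2.25) lie farthest from 0 among the 6 coloured genes, and the intervals of CTH and GAMT are the widest.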

How the data were processed

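RNA of 3 parental and 3 MTX-resistant Caco2 samples was hybridised to HG U133 Plus 2.0 arrays, 1 per sample. The deposited values are signal intensities on a linear scale, 1 for each probe set. The submitters' processing notes name MAS5 as the method, without version or scaling, and the later ratios of the study's methods were not taken up. Precision is limited by the number of arrays.

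From the deposited intensities, 62 control probe sets were removed, zeros were replaced by 0.05, and each array was scaled to a median of 1 before log2 was taken. Testing was restricted to the 26563 probe sets whose mean reached 1 array median. Gene names came from the platform's annotation, with symbols brought up to RefSeq by Entrez number, and each of the 11849 tested genes was read by the brightest probe set that names no other gene. The comparison used limma 3.58.1 (R 4.3.3) with an intensity trend and two-sided p-values adjusted by Benjamini-Hochberg over all tested probe sets, and the fit was tested on simulated data. Ratios between members, other than those of ODC1, were compared by exact permutation.

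The 17 alternatives comprised other scalings (quantile, none, and a trimmed mean, the last chosen after seeing the data), other treatment of dim probe sets (no filter, a minimum of 3 medians, a floor at the 25th percentile, an added 0.5), other fits (without trend, with replicate number as block, the pooled t-test), averaging the probe sets of a gene, and omission of each of the 6 arrays. The pooled t-test was run on the scaled log2 values without the study's own filter and error model. Its calls are therefore not those of the study. Calls were also counted with a 2-fold threshold added. Members are all named. From the further genes, those past the test are named and, where a role group had none, the one that differed most. MTAP, OAZ2, the check markers and genes past the test without parental array 3 but not with all arrays were named outside this rule, after their values were seen. The members and lists were chosen with earlier results of these data known.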

Additional observations from a re-analysis of the deposited data

How the results depend on the processing

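The decrease of ODC1 was past the test in all 17 alternatives, with differences from -0.80 to -0.67 and adjusted p from 7.76e-05 to 0.0437, but it is under 2-fold, so with a 2-fold threshold 0 member genes and 0 member probe sets fell. With single arrays left out the members counted 1 fallen gene each time and 0 to 2 risen (probe sets also 1 and 0 to 2). Of the further genes, 1 to 11 rose and 1 to 10 fell with single arrays left out. The pooled t-test called 1 risen and 0 fallen, the 2-fold threshold 1 and 1, and averaging a gene's probe sets gave 0 fallen. Without further scaling, without the filter and without the intensity trend 1 rose. The sign of SAT1 turned with the mean of its probe sets (0.14) and with single arrays left out (-0.33 to 0.16), and that of OAZ1 with quantile normalization (-0.02). The numbers of the replicates did not pair the samples (correlations of deviations from -0.0218 to -0.0165), and with the replicate block 1 further gene rose in place of 4, while the calls of members did not change. Among all tested probe sets the counts of risen and fallen were 1528 and 1135. They became 3586 and 3518 when parental array 3 was omitted, 476 to 955 and 393 to 600 without another single array, 698 and 504 without the intensity trend, 198 and 121 by the pooled t-test, and 1054 and 1204 without further scaling. The cause of these shifts was not tested. The brightest probe sets of the members lay at 27.5 times the array median or more, so dim signal bears on their further probe sets alone.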
